A study of Mus musculus with 224 samples.

Results

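Histone deacetylases remove acetyl groups from histones and other proteins. Class I enzymes (Hdac1, Hdac2, Hdac3 and Hdac8) are zinc-dependent and act mainly in the nucleus, most of them inside corepressor complexes, class IIa enzymes (Hdac4, Hdac5 and Hdac9) move between nucleus and cytoplasm under the control of kinases, and Hdac11 is the only member of class IV. Sirtuins (Sirt1 and Sirt2) carry out a related reaction that consumes NAD. In the brain these enzymes are known for roles in learning, in myelination and in responses to drugs of abuse, and inhibitors of class I and class II enzymes alter ethanol drinking in rodents.

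Expression of these 10 genes was measured by every probeset that the array annotation gave to 1 of their symbols, 16 probesets of 45037, among 18193 named genes. Hdac2 and Hdac4 had 3 probesets each, Hdac9 and Hdac11 had 2 each, and the other 6 genes had 1 each. All arrays came from male C57BL/6J mice that were purchased at 10 weeks of age, in 4 treatment groups. CIE Drinking mice breathed ethanol vapor in chambers (chronic intermittent ethanol, CIE, 16 h/day for 4 days, 4 cycles, each session started by injection of 1.6 g/kg ethanol with pyrazole) and had a 2 h choice between 15% ethanol and water between cycles, after 72 h of abstinence. CIE NonDrinking mice had the vapor and the ethanol injections and drank only water. Air Drinking mice had air in the chambers and the same access to ethanol as CIE Drinking mice, both after 6 weeks of baseline drinking. According to the paper, CIE Drinking mice drank significantly more ethanol than Air Drinking mice after most of the vapor cycles. Air NonDrinking mice had air and water only. Pyrazole, an inhibitor of alcohol dehydrogenase, was given to all 4 groups, so that no group was free of it. Whole tissue was measured from the central amygdaloid nucleus (CeA, 43 arrays), the BNST (bed nucleus of the stria terminalis, 45), the hippocampus (HPC, 42), the accumbens (NAC, 47) and the prefrontal cortex (PFC, 47), with 8 to 12 arrays in a group of a region. The labels carried 51 mouse numbers, 13 in CIE Drinking, 12 in CIE NonDrinking, 14 in Air Drinking and 12 in Air NonDrinking.

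In each region 6 pairs of groups were compared: Comparison 1, CIE Drinking against Air Drinking; Comparison 2, CIE NonDrinking against Air NonDrinking; Comparison 3, CIE Drinking against CIE NonDrinking; Comparison 4, CIE Drinking against Air NonDrinking; Comparison 5, CIE NonDrinking against Air Drinking; and Comparison 6, Air Drinking against Air NonDrinking. Every group stands in 3 of them, so that they are not independent. All values are deposited log2 intensities, a log2 fold change is the first group minus the second, n is the number of arrays, and a probeset was called at a limma adjusted p of 0.01 or less (Benjamini-Hochberg over all probesets of a region and comparison). In whole tissue, fewer cells of a type and less RNA per cell cannot be told apart. According to the paper, drinking mice had been without ethanol for hours at sacrifice, and nondrinking mice for days. Of the nondrinking mice this applies to CIE NonDrinking only, since Air NonDrinking mice were never given ethanol. In Comparisons 3 and 5, drinking therefore cannot be told apart from the time since ethanol. The same holds for averages that set drinking against nondrinking mice. In Comparisons 4 and 6, having had ethanol cannot be told apart from its recent absence. In Comparison 1, and in any value built on it, vapor cannot be told apart from the larger amount that CIE Drinking mice drank.

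The start regions of the 3 genes whose changes are described most closely are shown for context, as RefSeq gives them for GRCm38.p6, from 250 bases before to 50 bases after a transcript start. Capitals mark the E-box CACGTG, which is bound by MYC and by clock proteins among others, the GC box GGGCGG in either direction (CCGCCC), which is bound by Sp factors, and TATTTTTA in either direction (TAAAAATA), the core of sites of MEF2 factors, which class IIa deacetylases bind and repress.
Sirt1, chr10:63338986-63339285, minus strand: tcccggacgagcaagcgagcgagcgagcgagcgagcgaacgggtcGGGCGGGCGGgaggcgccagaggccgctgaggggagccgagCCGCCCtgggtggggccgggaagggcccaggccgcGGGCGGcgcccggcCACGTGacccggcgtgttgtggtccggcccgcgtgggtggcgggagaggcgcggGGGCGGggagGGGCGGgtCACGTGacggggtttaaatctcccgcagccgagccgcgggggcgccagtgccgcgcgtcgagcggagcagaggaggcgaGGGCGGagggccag
Hdac5, chr11:102230123-102230422, minus strand: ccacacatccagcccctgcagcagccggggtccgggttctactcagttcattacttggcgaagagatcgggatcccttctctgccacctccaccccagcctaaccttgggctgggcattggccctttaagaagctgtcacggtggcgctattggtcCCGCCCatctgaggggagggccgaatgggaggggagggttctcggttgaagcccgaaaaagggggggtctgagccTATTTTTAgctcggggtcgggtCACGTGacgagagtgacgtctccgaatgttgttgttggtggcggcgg
Hdac2, chr10:36974294-36974593, plus strand: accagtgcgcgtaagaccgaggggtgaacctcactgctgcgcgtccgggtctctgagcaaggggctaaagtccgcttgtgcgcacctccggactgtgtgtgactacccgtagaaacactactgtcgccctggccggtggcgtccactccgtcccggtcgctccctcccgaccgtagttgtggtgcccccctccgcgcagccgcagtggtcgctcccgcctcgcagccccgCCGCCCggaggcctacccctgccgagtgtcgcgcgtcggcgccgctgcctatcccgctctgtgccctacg
Sirt1 held 2 E-boxes and 7 GC boxes, counting overlapping matches. Hdac5 held 1 E-box, 1 GC box and 1 MEF2 core, and Hdac2 held 1 GC box. Over all 32851 windows of this length, 7.15% held an E-box, 35.7% a GC box and 2.72% a MEF2 core on either strand. Windows were found for 8 of the 10 genes, 9 windows in all. Those of Hdac4, Hdac11 and Sirt2 held 5, 1 and 1 GC boxes and no other match, 1 of the 2 windows of Hdac9 held 1 MEF2 core, and that of Hdac8 held none of the 3 motifs. The gene bodies lie at chr10:63319005-63339035 (Sirt1), chr11:102195747-102230172 (Hdac5), chr10:36974297-37001889 (Hdac2) and chr12:34047580-34917095 (Hdac9) in GRCm38.p6. The Hdac2 window thus lies almost wholly inside its gene body, while those of Sirt1 and Hdac5 lie mostly outside theirs. Their motif counts are therefore not from like positions.

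Most of the probesets gave strong signals in all 5 regions. Because each region was normalized on its own, levels were compared between regions only by the rank of a probeset among all probesets of that region. The brightest probeset of the set was Hdac2 1445684_s_at, at the 94.7th to 96.3rd percentile, followed by Hdac11 1451229_at (89.0 to 94.2), Sirt2 (89.3 to 91.8) and Hdac3 (89.4 to 89.7). Sirt2, an enzyme of the cytoplasm, is abundant in oligodendrocytes. Hdac5 ranked at 82.0 to 85.4 and Sirt1 at 77.9 to 81.4. The dimmest were Hdac9 1421306_a_at at 19.3 to 25.5 and Hdac8 at 30.0 to 36.9, so that their fold changes rest on weak signals. Probesets of 1 gene ranked far apart, since each has its own probes. Hdac2 1439704_at ranked at 50.9 to 60.9 and Hdac2 1449080_at at 85.8 to 90.2. Hdac4 1447566_at ranked at 34.0 to 45.2, against 63.0 to 76.5 for 1436758_at and 65.9 to 79.9 for 1454693_at, with the highest rank of each of the 3 in the PFC. Hdac1 had its lowest rank in the PFC (65.4) and its highest in the HPC (83.3). Names ending in _s_at mark probesets whose probes can match more than 1 transcript, so that 1445684_s_at for Hdac2 and 1426437_s_at for Hdac3 may include signal of related transcripts. Where in each gene the probes lie is not given in the sources used here.

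**Figure D1:**
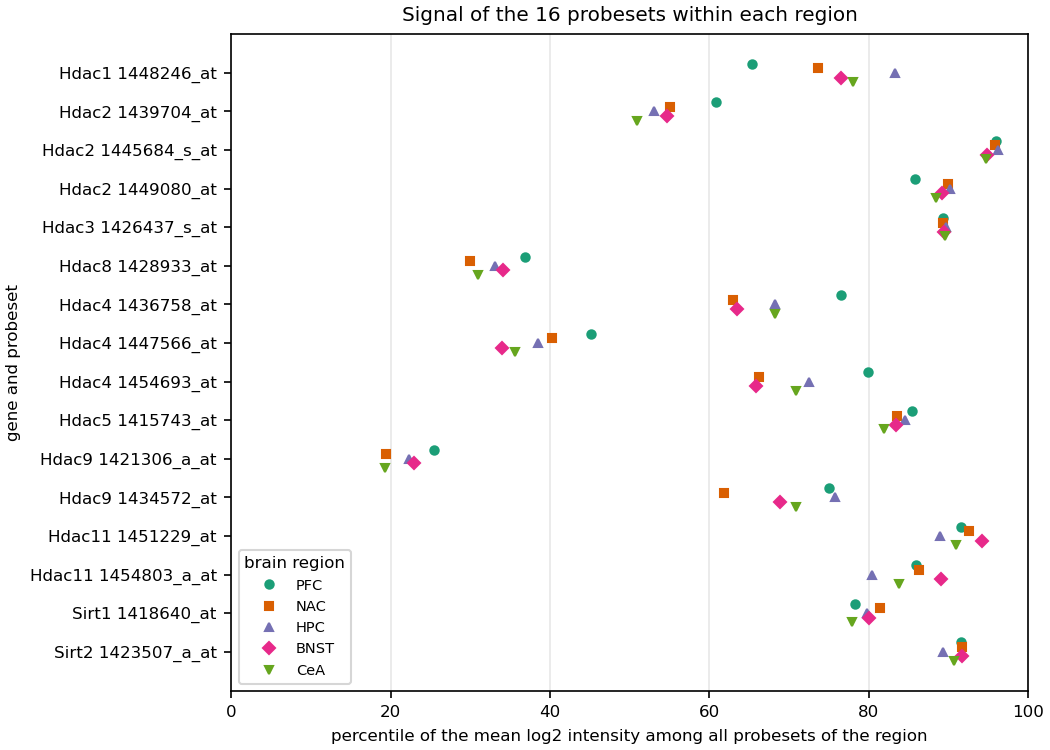
Percentile of the mean log2 intensity of each of the 16 probesets (rows) among all probesets of a region (horizontal axis), 1 marker per region. Probesets of Hdac2, Hdac4 and Hdac9 are spread widely within a gene, and Hdac3 has nearly the same rank in all regions.

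Of the 5 regions the PFC was the one with member calls in the 6 comparisons. There, 5 of 96 pairs of probeset and comparison were called, 3 of them from 1 Hdac2 probeset, 1 from Hdac9 and 1 from Sirt1, and 32 had an unadjusted p under 0.05. In the other 4 regions 0 of 384 pairs were called by limma, with 54 at an unadjusted p under 0.05. Over all probesets the 6 comparisons called 1.47% in the PFC and 0.592% in the other regions, and an unadjusted p under 0.05 was reached by 21.6% in the PFC and 12.3% in the other regions. Over Comparisons 1 to 6 in turn, 1.87%, 1.26%, 1.87%, 0.722%, 1.69% and 1.40% of all PFC probesets were called, and 1, 0, 0, 1, 1 and 2 of the 16. Outside the PFC the shares called were highest in Comparison 4, with 2.71% (NAC), 3.63% (HPC), 1.22% (BNST) and 1.86% (CeA). Comparison 1 had 0.282%, 1.23%, 0.943% and 0.177% in the same 4 regions, Comparison 3 had 0.0200%, 0.0832%, 0.401% and 1.64%, and the NAC had 0.00222% in Comparison 5. No share of the set was tested against the background.

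**Figure D2:**
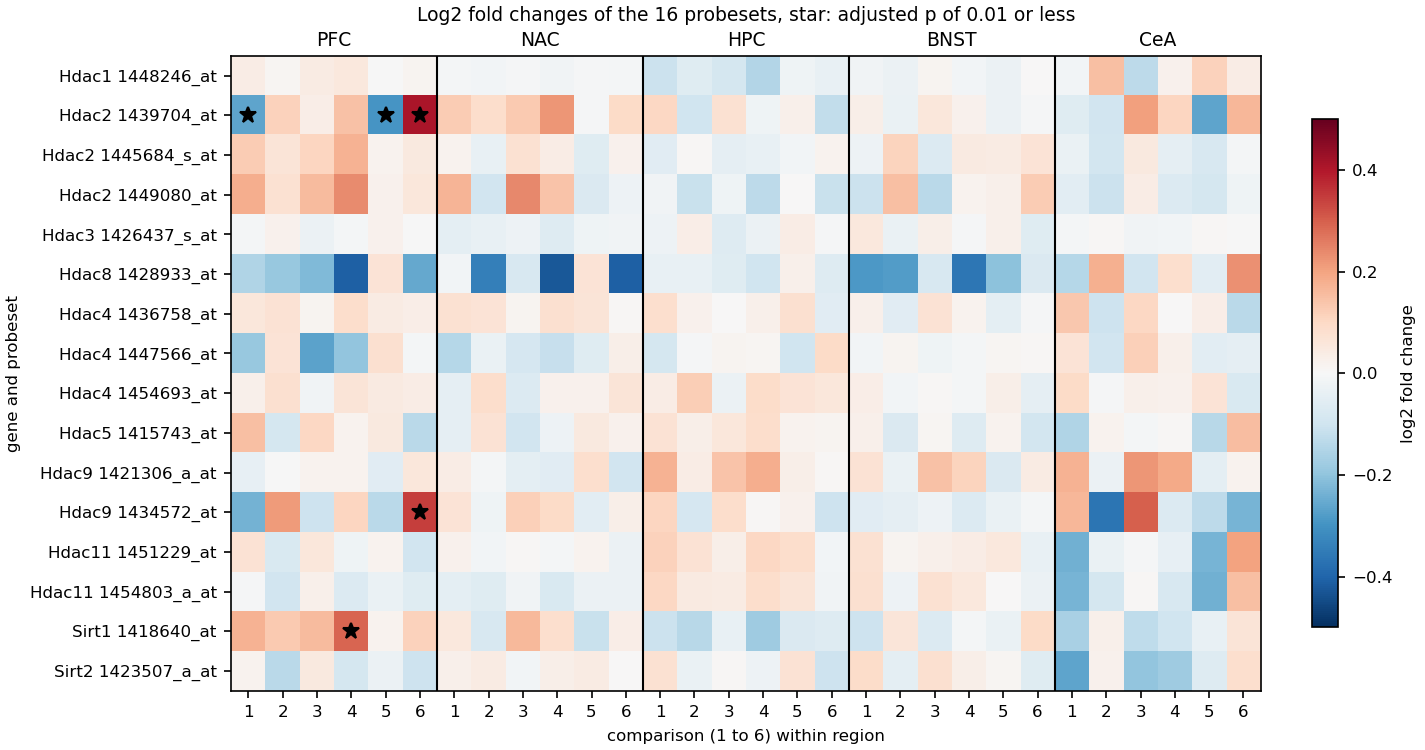
Log2 fold change (colour, first group minus second) of the 16 probesets (rows) in Comparisons 1 to 6 (columns) of each region, with stars at an adjusted p of 0.01 or less. All 5 stars lie in the PFC, 3 of them in the row of Hdac2 1439704_at.

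Hdac2 is the class I enzyme best known for restraining memory-related gene expression in neurons. In the PFC its probeset 1439704_at was higher in Air Drinking than in any other group. Its lowest, median and highest values were 6.942, 7.094 and 7.205 in CIE Drinking, 6.916, 7.056 and 7.369 in CIE NonDrinking, 7.191, 7.310 and 7.619 in Air Drinking, and 6.708, 6.952 and 7.142 in Air NonDrinking. All 11 Air Drinking arrays lay above all 12 Air NonDrinking arrays, and the 12 CIE Drinking arrays met the Air Drinking arrays only at the edge of their ranges. The log2 fold change was 0.41 ± 0.051 (SE) in Comparison 6 (adjusted p = 5.53e-06 by limma, 11 of 11 Air Drinking arrays above the mean of Air NonDrinking). It was -0.26 ± 0.051 in Comparison 1 (adjusted p = 0.00128, 12 of 12 CIE Drinking arrays below the mean of Air Drinking) and -0.295 ± 0.051 in Comparison 5 (adjusted p = 0.000216, 11 of 12 arrays).

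The remaining PFC comparisons of this probeset were not called. CIE NonDrinking exceeded Air NonDrinking by 0.11 (adjusted p = 0.178), CIE Drinking exceeded Air NonDrinking by 0.15 (adjusted p = 0.0579), and CIE Drinking and CIE NonDrinking differed by 0.03 ± 0.050 (SE). The vapor difference in drinking mice minus that in nondrinking mice (the interaction) was -0.38 ± 0.072 (SE, adjusted p = 0.000804 by limma, 2.92% of all PFC probesets called). The drinking term, over both vapor states, was 0.22 ± 0.036 (adjusted p = 0.000341, 1.35% called), and no member was called for vapor (0.915% called). Outside the PFC 0 of 192 tests of these terms were called by limma for members, with 30 at an unadjusted p under 0.05, where 0.777% (NAC), 1.20% (HPC), 0.0698% (BNST) and 0% (CeA) of all probesets were called for vapor, 0.0444%, 0.0292%, 0.00225% and 1.14% for drinking, and 0% for the interaction. All 47 refits that left out 1 PFC array kept the 3 calls and both terms of this probeset. In the other regions its fold changes lay between -0.26 and 0.22, the lowest in Comparison 5 of the CeA and the highest in Comparison 4 of the NAC, none of them called. The Comparison 1 value in the PFC was not called as different from that in any other region (adjusted p of 0.0383 or more by limma for the fold change in the PFC minus that elsewhere), although with array quality weights it was against the NAC, HPC and BNST (adjusted p = 0.000677, 0.00109 and 0.00979). Comparisons 5 and 6 were not tested between regions. By group mean, Air Drinking was below CIE Drinking in the NAC (7.534 in CIE Drinking and 7.409 in Air Drinking) and the BNST (7.281 in CIE Drinking and 7.253 in Air Drinking), and was the lowest group in the HPC (7.096). In the CeA Air Drinking was the highest group (7.035), as in the PFC. The other CeA means were 6.975 in CIE Drinking, 6.868 in Air NonDrinking and 6.771 in CIE NonDrinking.

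**Figure D3:**
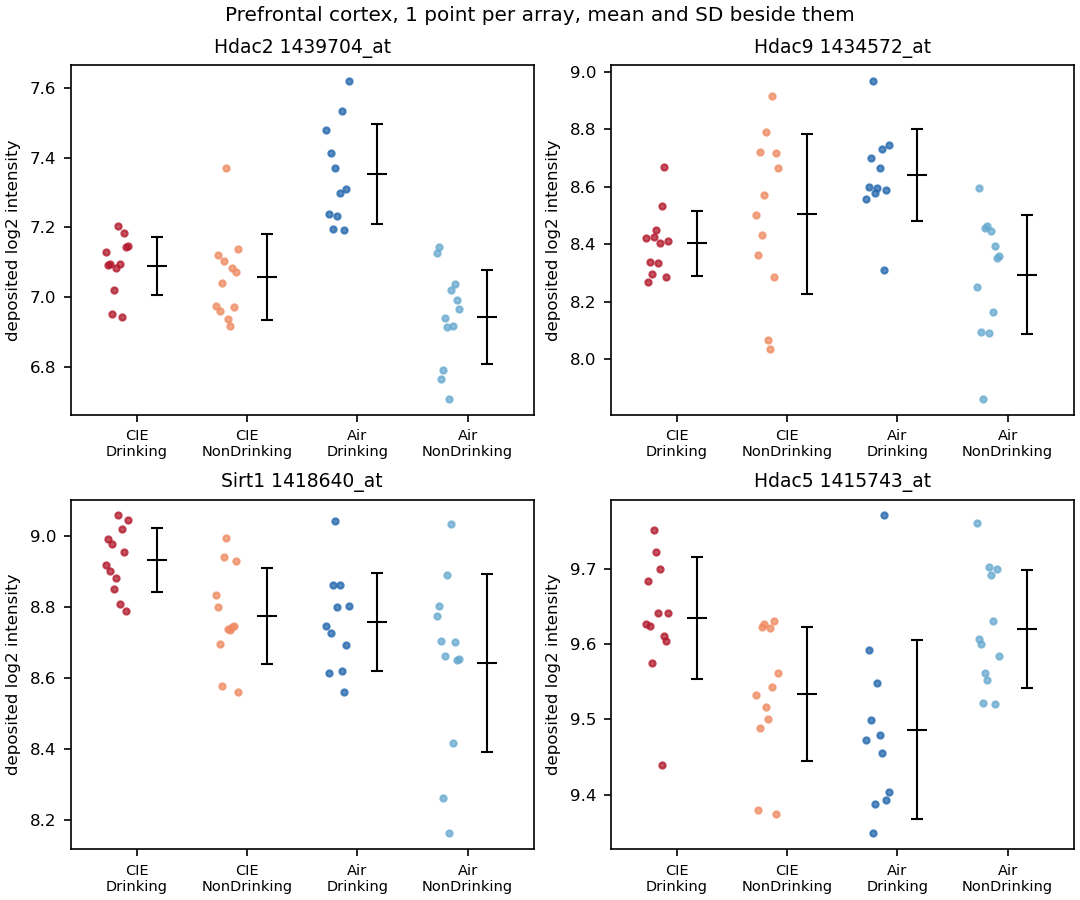
Deposited log2 intensity in the PFC (vertical axis) by treatment group for 4 probesets, 1 point per array, with mean and SD. Hdac2 1439704_at separates Air Drinking from Air NonDrinking without overlap, while in the other 3 panels all groups overlap.

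The other Hdac2 probesets did not show this pattern. In Comparison 1 of the PFC, 1445684_s_at was 0.13 higher (adjusted p = 0.182) and 1449080_at 0.18 higher (adjusted p = 0.158) in CIE Drinking, where 1439704_at was lower. In Comparison 6 they differed by 0.05 and 0.06 with adjusted p of 0.612 and 0.672. Their values in Comparison 4 were 0.175 ± 0.055 (SE, adjusted p = 0.0433 by limma) and 0.24 ± 0.075 (adjusted p = 0.0446), with 12 of 12 CIE Drinking arrays above the mean of Air NonDrinking for both. The 1449080_at values of CIE Drinking ran from 9.606 to 9.945 around a median of 9.754, against 9.005 to 9.880 around 9.605 in Air NonDrinking. CIE Drinking was the narrowest group, and the low end of Air NonDrinking lay well below it. A permutation test over arrays compared the brightest Hdac2 probeset with the mean of the other 2, for Comparisons 1, 3 and 4 only. That mean joins 1439704_at with 1449080_at, which moved the opposite way in Comparison 1. The test therefore does not measure how far 1439704_at alone departs from the others, and Comparison 6 was not tested. In Comparison 1 of the PFC the fold changes differed by 0.17 (0.13 against -0.04), with p = 0.00019 and an adjusted p of 0.0114 over 60 such tests of Hdac2, Hdac4, Hdac9 and Hdac11, just short of a call. Over the 60 tests 0 were called and 12 had an unadjusted permutation p under 0.05. With probesets below the 40th percentile left out, 45 tests remained and this one was called (adjusted p = 0.00855, permutation test). The mean of the 3 Hdac2 probesets gave 0.015 in Comparison 1 (adjusted p = 0.912), so that the direction for the gene as a whole depends on which probesets are read.

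**Figure D4:**
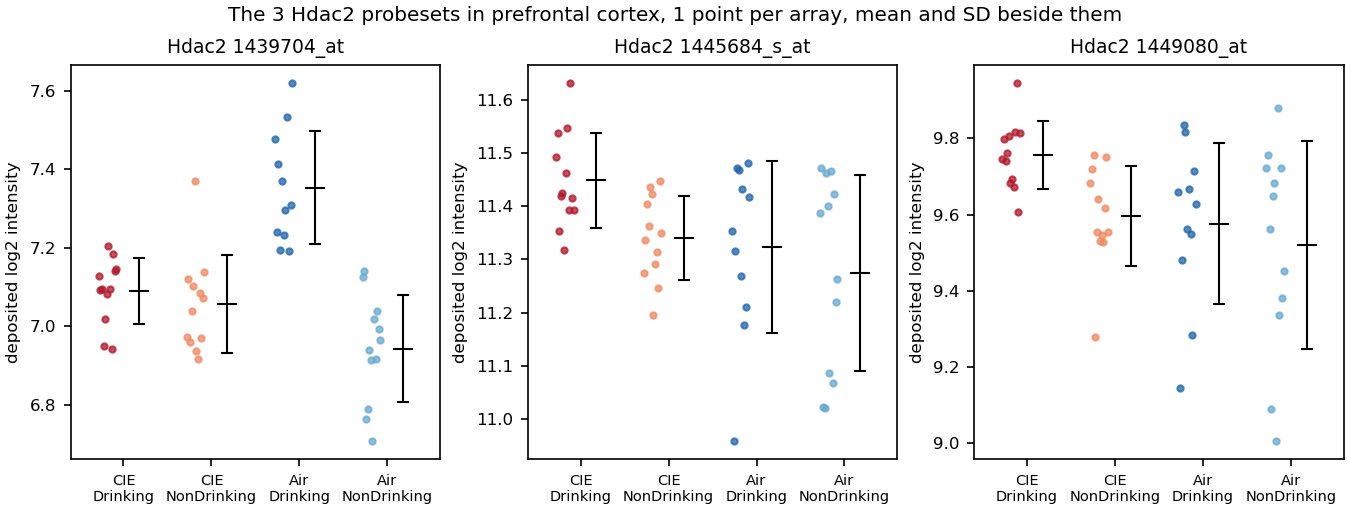
Deposited log2 intensity of the 3 Hdac2 probesets in the PFC (vertical axes) by treatment group, 1 point per array, with mean and SD. Air Drinking is the highest group for 1439704_at and CIE Drinking the highest for the other 2.

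Over 20 group means, each taken relative to the mean of its region, the genes most like Hdac2 1439704_at were Nxph1 (Pearson r = 0.865), Xiap (0.864), Atp8a2 (0.861), Thrb (0.861) and Rnf170 (0.857). Their own log2 fold changes in Comparison 6 of the PFC were 0.34, 0.315, 0.36, 0.35 and 0.46. Among the members, Hdac9 1434572_at was the most like it (r = 0.656), while the other Hdac2 probesets had r of 0.183 and 0.261. These are descriptions over groups that share arrays and normalization.

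The remaining class I genes had no calls, except with array quality weights for Hdac8 and, between regions, for Hdac1. The Hdac1 call was in Comparison 4, for the fold change in the PFC minus that in the HPC (0.231, adjusted p = 0.00154 by limma). Hdac1, which forms the catalytic core of several corepressor complexes together with Hdac2, had PFC fold changes between -0.001 and 0.051, each with an SE of 0.037 to 0.038. Hdac3, the enzyme of the NCoR and SMRT complexes, had fold changes between -0.03 and 0.02 in the PFC, and across all regions the fold changes of Hdac3 lay between -0.064 and 0.054. Hdac8, at its low signal, was 0.41 ± 0.116 (SE) lower in Comparison 4 of the PFC (adjusted p = 0.0301 by limma), and with array quality weights this was called (-0.500, adjusted p = 0.00621). Its values ran from 4.381 to 5.578 around a median of 4.582 in CIE Drinking, against 4.853 to 5.554 around 5.119 in Air NonDrinking. Most CIE Drinking arrays were low, but the highest of them exceeded every Air NonDrinking array. In Comparison 4 Hdac8 was 0.42 lower in the NAC (adjusted p = 0.0932) and 0.36 lower in the BNST (adjusted p = 0.425), neither of them called. Its log2 fold change in that comparison was -0.099 in the HPC and 0.085, of the opposite sign, in the CeA.

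Among class IIa genes, Hdac9 resembled the Hdac2 pattern in 1 of its 2 probesets. Hdac9 lacks part of the catalytic domain in some isoforms and acts as a repressor of MEF2 target genes. In the PFC 1434572_at had lowest, median and highest values of 8.312, 8.598 and 8.968 in Air Drinking, against 7.862, 8.355 and 8.595 in Air NonDrinking. The Air Drinking median lay above the whole Air NonDrinking range, although the ranges of the groups overlapped. The log2 fold change in Comparison 6 was 0.35 ± 0.081 (SE, adjusted p = 0.00795 by limma, 11 of 11 arrays above the mean of Air NonDrinking). CIE Drinking was 0.24 below Air Drinking (adjusted p = 0.0687) and CIE NonDrinking 0.21 above Air NonDrinking (adjusted p = 0.107), which gave an interaction of -0.45 ± 0.113 (adjusted p = 0.00885). Both calls were near the threshold: 13 of 47 refits without 1 array lost the Comparison 6 call and 31 of 47 lost the interaction. The dim probeset 1421306_a_at differed by 0.06 in Comparison 6 of the PFC (adjusted p = 0.607), and its lowest adjusted p anywhere was 0.012, in Comparison 3 of the CeA (0.22 higher in CIE Drinking).

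Hdac5, a class IIa enzyme that leaves the nucleus when neurons are active, was lowest in Air Drinking, the group in which Hdac2 1439704_at was highest. Its PFC values were 9.439, 9.634 and 9.752 (lowest, median, highest) in CIE Drinking, 9.374, 9.538 and 9.631 in CIE NonDrinking, 9.349, 9.472 and 9.771 in Air Drinking, and 9.521, 9.603 and 9.761 in Air NonDrinking. The groups with both exposures or neither were the high ones, and all groups overlapped. The interaction was 0.235 ± 0.056 (SE, adjusted p = 0.00567 by limma). It was made up of 0.15 in Comparison 1 (adjusted p = 0.0188) and -0.09 in Comparison 2 (adjusted p = 0.196), neither of them called, and Comparison 6 gave -0.13 (adjusted p = 0.0363). With array quality weights Comparison 1 (0.177, adjusted p = 0.000317) and Comparison 6 (-0.158, adjusted p = 0.00672) were both called. Leaving out any 1 of 4 arrays (Air Drinking mouse 31, CIE NonDrinking mice 34 and 43, Air NonDrinking mouse 45) moved the interaction to 0.22 and its adjusted p past the threshold.

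Hdac4, a class IIa enzyme required for normal synaptic function, was close to the threshold in the PFC. Its dimmer probeset 1447566_at was 0.27 ± 0.067 (SE) lower in Comparison 3 of the PFC, with an adjusted p of 0.0107 by limma and 11 of 12 CIE Drinking arrays below the mean of CIE NonDrinking. Values ran from 5.264 to 5.852 around 5.487 in CIE Drinking, against 5.536 to 6.034 around 5.803 in CIE NonDrinking. The ranges overlapped between 5.536 and 5.852. The brighter Hdac4 probesets differed by 0.01 and -0.02 in the same comparison, so that the lower value was seen in 1 of 3 probesets. It was called with dim probesets left out (adjusted p = 0.00723), with only the 2 compared groups in the fit (adjusted p = 0.00985) and with array quality weights (-0.256, adjusted p = 0.00267).

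Hdac11, which is found in neurons and oligodendrocytes, and Sirt2 were not called in any region. In the PFC the Hdac11 probesets lay between -0.10 and 0.07 and Sirt2 between -0.13 and 0.05, and all 3 probesets were lower in CIE NonDrinking than in Air NonDrinking, with adjusted p of 0.0961 to 0.225. Markers of oligodendrocytes moved with the groups in the PFC. In Comparison 1, 22 of 25 marker probesets of 9 genes had positive values (median log2 fold change 0.24, 0 called by limma, 19 with an unadjusted p under 0.05), their median in Comparison 6 was -0.12, and their median interaction was 0.35, against a median of -0.01 over all PFC probesets in Comparison 1. The markers did not all move together. Called interactions were positive for Mal, Mobp and Cnp (0.64, 0.38 and 0.70) and negative for Mbp 1425264_s_at (-0.40). Mbp 1425263_a_at was called lower in Comparisons 2 and 5 (-0.47 and -0.62). The Comparison 1 and Comparison 6 values of Hdac5 ran the same way as the marker medians. Those of Hdac2 1439704_at and Hdac9 1434572_at ran the opposite way. Markers of striatal projection neurons had medians of 0.42 in Comparison 1 and -0.52 in Comparison 6 over 10 probesets. Pan-neuronal markers had medians of -0.04 and 0.07 over 14 probesets. No probeset of either list was called by limma in these comparisons. The mean level of the striatal markers overlapped between groups, from 8.283 to 10.022 in CIE Drinking, 8.217 to 9.824 in Air Drinking and 8.296 to 9.685 in Air NonDrinking. Of 29 astrocyte marker probesets of 8 genes, 3 were called higher and 1 lower in Comparison 1 (median 0.02). The higher ones were all of Gfap (0.53, 0.65 and 0.89, with interactions of 0.63, 0.83 and 1.22), and the lower one was Slc1a2 1459014_at (-0.81). Olig2, of oligodendrocyte precursors (0.35, 1 of 8 probesets called), and Prox1, of hippocampal granule cells (0.38, 1 of 14 called), were also called higher in Comparison 1, the direction of Hdac5. The mean level of the 9 oligodendrocyte genes ranged over arrays from 11.353 to 11.768 in CIE Drinking, 11.014 to 11.751 in CIE NonDrinking, 10.907 to 11.641 in Air Drinking and 11.068 to 11.818 in Air NonDrinking. Their part in the results for the deacetylases was not tested.

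Sirt1, a nuclear sirtuin that deacetylates histones and transcription factors, was the only member called between CIE Drinking and Air NonDrinking. Its PFC values were 8.788, 8.935 and 9.058 (lowest, median, highest) in CIE Drinking, 8.559, 8.745 and 8.994 in CIE NonDrinking, 8.560, 8.746 and 9.042 in Air Drinking, and 8.162, 8.680 and 9.034 in Air NonDrinking. CIE Drinking was the highest and narrowest group, and the lowest Air NonDrinking arrays lay below every array of the other groups. The log2 fold change in Comparison 4 was 0.29 ± 0.066 (SE, adjusted p = 0.009 by limma, 12 of 12 arrays above the mean of Air NonDrinking). CIE Drinking was also 0.175 ± 0.067 above Air Drinking (adjusted p = 0.113) and 0.16 ± 0.066 above CIE NonDrinking (adjusted p = 0.139), and the interaction was 0.04. The call was lost in 24 of 47 refits without 1 array (fold changes 0.25 to 0.33, adjusted p of 0.00225 to 0.0241), with only the 2 compared groups in the fit (adjusted p = 0.0281), and with array quality weights (0.22, adjusted p = 0.0129).

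Whether the PFC differed from the other regions was tested directly, as the fold change in the PFC minus that in each other region, for Comparisons 1, 3 and 4. Of 192 tests of members, 7 were called, 5 of them against the CeA and 2 against the HPC. The share of all probesets called was 4.27% for Comparison 1 against the CeA, 1.85% for Comparison 3 against the CeA, 3.28% for Comparison 4 against the HPC and 2.24% for Comparison 4 against the CeA, and 3, 1, 2 and 1 of the 16 member probesets were called in these. In the remaining 128 tests 0 were called by limma, with 31 at an unadjusted p under 0.05, where the share of all probesets was 0.781%, 2.17% and 2.33% for Comparison 1 against the NAC, HPC and BNST, 0.107%, 0.0524% and 0.321% for Comparison 3 against the same regions, and 0.182% and 0.595% for Comparison 4 against the NAC and BNST.

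Sirt1 was called in 3 of the 7. In Comparison 4 it was 0.29 higher in the PFC and 0.18 lower in the HPC (difference 0.47, adjusted p = 0.000105 by limma), where its values ran from 9.031 to 9.767 around 9.318 in CIE Drinking, against 9.305 to 9.809 around 9.549 in the 8 Air NonDrinking arrays. Against the CeA, where it was 0.10 lower, the difference was 0.39 (adjusted p = 0.00187), which was not called with array quality weights (0.301, adjusted p = 0.011). In Comparison 1 it was 0.175 higher in the PFC and 0.16 lower in the CeA, a difference of 0.34 (adjusted p = 0.00306). Neither region had a called value of its own in Comparison 1, so that the difference comes from opposite values that each missed the threshold. In the NAC and BNST the Comparison 4 values were 0.08 and -0.01, and their differences from the PFC were not called.

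Another 3 members differed from the CeA. Hdac5 was 0.15 higher in the PFC and 0.15 lower in the CeA in Comparison 1 (difference 0.30, adjusted p = 0.000699 by limma). Hdac11 1451229_at was 0.07 higher in the PFC and 0.24 lower in the CeA in the same comparison (difference 0.31, adjusted p = 0.00155). Hdac4 1447566_at was 0.27 lower in the PFC and 0.12 higher in the CeA in Comparison 3 (difference -0.39, adjusted p = 0.000941). In these cases the other 3 regions lay between the PFC and the CeA, except for Hdac11, whose HPC and BNST values (0.11 and 0.07) were at or above the PFC value. Hdac2 1449080_at was 0.24 higher in the PFC and 0.13 lower in the HPC in Comparison 4 (difference 0.37, adjusted p = 0.00601). With the mouse number as a block the same 7 were called, and the consensus correlation between regions of a mouse was 0.0146.

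**Figure D5:**
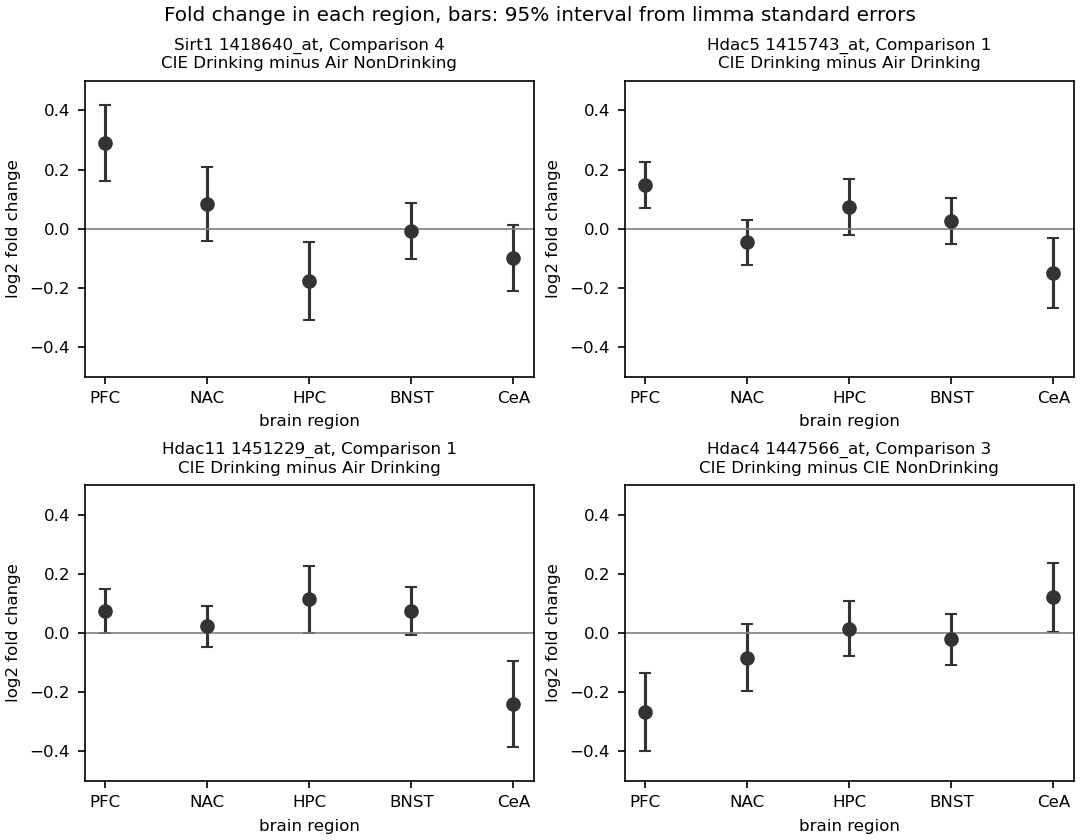
Log2 fold change (vertical axes, first group minus second) in each brain region for Sirt1 in Comparison 4, Hdac5 and Hdac11 1451229_at in Comparison 1 and Hdac4 1447566_at in Comparison 3. Points are limma estimates and bars their 95% intervals, and the PFC and CeA lie on opposite sides of 0 in every panel.

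The CeA arrays differed from the other regions in markers of the choroid plexus, whose 6 genes stood at a median percentile of 96.3 in the CeA and of 34.4 to 44.9 in the other regions. The mean level of these genes in the CeA ranged over arrays from 8.838 to 13.262 in CIE Drinking, 9.649 to 13.142 in CIE NonDrinking, 8.317 to 12.816 in Air Drinking and 9.326 to 12.973 in Air NonDrinking. In Comparison 3 of the CeA their median log2 fold change was -0.61 and in Comparison 1 it was 0.18. Oligodendrocyte markers had a median of 0.24 in Comparison 1 of the PFC, against -0.34 in the CeA. In the PFC, where they stood at a median percentile of 37.3, the choroid plexus medians were 0.46 in Comparison 1 and 0.39 in Comparison 3. In Comparison 3 the oligodendrocyte medians were 0.20 in the PFC, against -0.25 in the CeA. Of both lists, only Mal 1432558_a_at was called by limma in Comparisons 1 and 3 of these regions (0.44, Comparison 3 of the PFC). In Comparison 1 the oligodendrocyte medians thus had the signs of Hdac5 and Hdac11 1451229_at in both regions, whereas the choroid plexus median in the CeA had the opposite sign to both genes. In Comparison 3 both marker medians had the opposite sign to Hdac4 1447566_at in each region. The part of these markers in the results was not tested.

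The genes that work with the deacetylases were counted as well, 58 genes on 166 probesets of the NuRD, Sin3, CoREST and NCoR complexes, of class IIa partners and kinases, of NAD supply and SIRT1 regulation, and the remaining deacetylases. The other deacetylases and sirtuins (Hdac6, Hdac7, Hdac10 and Sirt3 to Sirt7, 12 probesets) gave 0 calls by limma in 72 PFC tests, with 11 at an unadjusted p under 0.05. Outside the PFC, where no member was called, partner probesets were called most often in Comparison 4 of the NAC and HPC, nearly all of them higher in CIE Drinking. In the NAC 13 were higher and 1 lower (8.43%, against 2.71% of all probesets), in the HPC 18 and 1 (11.4%, against 3.63%), in the BNST 6 and 2 (4.82%, against 1.22%) and in the CeA 12 and 0 of 164 (7.32%, against 1.86%). Calls in Comparison 1 were as many in the BNST (5 higher, 3 lower), and Comparison 3 gave 9 higher and 2 lower in the CeA. The 4 regions share mice, so that these counts are not independent of each other. Several genes, among them Arid4b, Chd4 and Tbl1x, gave more than 1 of the calls. The lists were chosen with earlier results of these data known, and no partner share was tested against that of all probesets. Some RNAs retained in the nucleus were called in the same comparisons. Of 34 probesets of 7 such genes, 3 (NAC), 5 (HPC), 1 (BNST) and 6 (CeA) were called higher in Comparison 4 and 0 lower, and 4 in the CeA in Comparison 3. All of these were from Malat1 or Kcnq1ot1, and the other listed genes had none. The shares of all probesets given above for Comparison 4 apply here too. Malat1 1418189_s_at was 1.18 higher in the CeA, 0.89 in the HPC and 0.74 in the NAC in Comparison 4, and Kcnq1ot1 1446255_at was 1.05 higher in the CeA and 0.70 in the BNST. In Comparison 5 of the PFC, 5 of the 34 were called lower. Their part in the counts of partners was not tested.

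Gatad2b 1425075_at, of a NuRD subunit, was 0.73 ± 0.090 (SE) higher in Comparison 4 of the NAC (adjusted p = 9.62e-07 by limma) and 0.61 higher in the BNST (adjusted p = 5.26e-05). Gatad2b 1437507_at was called only in Comparison 1 of the PFC (0.19 higher). Chd4, the NuRD remodelling ATPase, was 0.88 higher through 1438476_a_at in both the HPC (adjusted p = 9.75e-05) and the CeA (adjusted p = 5.37e-05). Arid4b, a Sin3 subunit, was 0.68 higher in the BNST (adjusted p = 4.61e-05) through 1451847_s_at. In Comparison 4 of the HPC that probeset was 0.76 higher (adjusted p = 0.000118 by limma), but Arid4b 1435768_at was called 0.15 lower (adjusted p = 0.00774). Tbl1x, which belongs to the NCoR complex of Hdac3, was 0.955 higher in the HPC (adjusted p = 2.9e-05) through 1434643_at, and Rcor1, the CoREST scaffold, was 0.44 higher in the NAC (adjusted p = 9.8e-06) through 1437545_at. Rcor1 1454932_at did not follow it, being called 0.17 higher in Comparison 5 of the PFC (adjusted p = 0.00185 by limma), where 1437545_at was 0.27 lower (adjusted p = 0.00505), and 0.20 lower in Comparison 1 of the HPC (adjusted p = 0.00677). Hdac1 in Comparison 4 gave fold changes between -0.14 and 0.02 in the NAC, HPC, BNST and CeA, and Hdac3 between -0.06 and -0.01, none of them called. In the PFC the partners were called most in Comparison 5, with 1 higher and 8 lower (5.42%, against 1.69% of all probesets). Gatad2b 1425075_at was 0.42 lower there (adjusted p = 0.0027) and Chd4 1436343_at 0.33 lower (adjusted p = 0.000547), in the same comparison in which Hdac2 1439704_at was lower. Camk2a 1452453_a_at, of a kinase that acts on class IIa enzymes, was 0.55 ± 0.089 (SE) higher in Comparison 6 of the PFC (adjusted p = 0.000275 by limma), where Hdac9 1434572_at was also called. It was the only partner call in that comparison (0.602% of 166 partner probesets, against 1.40% of all probesets). Ppargc1a, a coactivator that Sirt1 deacetylates, had a PFC interaction of -0.44 ± 0.083 (SE, adjusted p = 0.000679) through 1437751_at and was 0.49 higher in Comparison 4 of the HPC (adjusted p = 0.00591) through 1460336_at.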

How the data were processed

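Expression values were the authors' deposited log2 intensities from Affymetrix Mouse Genome arrays. After removing arrays of low quality, the authors background-corrected and summarised them by RMA, normalised them by quantiles in each region separately and adjusted them for hybridization batch with ComBat. Levels can therefore not be compared between regions, the adjustment may have altered differences between groups, and the batches are not given in the labels, so that no value within a batch could be computed. No versions of these steps are given in the sources used here. Groups, regions and mouse numbers came from the labels. Precision is limited by the number of arrays (8 to 12 a group), and is given as the standard error. Gene symbols came from the platform annotation and every probeset with a single member symbol was kept.

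All probesets of a region (45037 in the PFC, 43969 in the CeA) were fitted with limma 3.58.1 in R 4.3.3, with 1 mean per group, default empirical Bayes variances and Benjamini-Hochberg adjustment over all probesets, separately for each comparison of a region. A call was an adjusted p of 0.01 or less. Vapor, drinking and interaction used sum-to-zero coding. Differences between regions used 43893 probesets and 1 mean for each region and group, with the mouse number as a block (duplicateCorrelation, statmod 1.5.0) as an alternative. Labels give 1 mouse number to arrays of several regions (32 of 51 numbers have arrays in all 5), and the number was taken as the mouse. Probesets of a gene were compared by two-sided permutation of arrays with 100000 resamples (NumPy 2.4.6), exact where a group had fewer than 10 arrays. The limma fit and the permutation were tested on simulated data. Alternatives were a filter on dim probesets, trended robust variances, array weights, repeated quantile normalisation, the mean of a gene's probesets and fits of only 2 groups. Leaving out each PFC array was added after the data were seen. Members, lists and alternatives were chosen with earlier results of these data known. Named were every member with all its probesets, up to 2 called genes of each list with the smallest adjusted p, and the 5 genes most like the probeset with most calls. Promoter sequences are from RefSeq (GRCm38.p6).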

Additional observations from a re-analysis of the deposited data

Results flagged for a closer look

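In 3 PFC probesets the vapor difference in drinking mice departed from that in nondrinking mice by limma. It was -0.377 for Hdac2 1439704_at, -0.449 for Hdac9 1434572_at and 0.235 for Hdac5, with adjusted p of 0.000804, 0.00885 and 0.00567. These are differences between fold changes on the log2 scale, and only that of Hdac2 was called in every refit without 1 PFC array.

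In 7 cases the fold change in the PFC departed from that in another region. For Sirt1 the differences were 0.466 (Comparison 4, against the HPC), 0.39 (Comparison 4, against the CeA) and 0.34 (Comparison 1, against the CeA). In Comparison 1 against the CeA the difference was 0.299 for Hdac5 and 0.314 for Hdac11 1451229_at. For Hdac4 1447566_at it was -0.388 in Comparison 3 against the CeA, and for Hdac2 1449080_at it was 0.368 in Comparison 4 against the HPC.

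In 4 cases a single array lay apart from its group. Only groups of 10 or fewer arrays were screened, and these were the Air NonDrinking groups of the HPC, CeA and BNST. Mouse 55 was the lowest of 8 HPC arrays for Hdac2 1439704_at (6.855, the next at 7.182). In the BNST mouse 55 was the highest of 10 arrays for Hdac2 1445684_s_at (11.456, the next at 11.340) and for Sirt1 (9.619, the next at 9.413). Mouse 53 was the highest of 8 HPC arrays for Hdac3 (10.657, the next at 10.576). Such a gap is met by chance in about 1 of 20 groups, and 48 groups (16 probesets in 3 regions) were screened.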

How the results depend on the processing

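The 5 PFC calls in the 6 comparisons became 1 when the probesets of a gene were averaged (Sirt1 in Comparison 4, adjusted p = 0.00996 by limma) and 3 to 7 in refits without 1 PFC array. Refits without Air Drinking mice 24, 30, 58 or 62 gave 3. The 4 PFC calls for vapor, drinking or interaction became 1 with the mean of all probesets (Hdac5 interaction, adjusted p = 0.00419) and 2 to 4 without 1 array, with 2 when Air Drinking mouse 31, CIE NonDrinking mouse 43 or Air NonDrinking mouse 45 was left out. Outside the PFC the count of 0 became 1 in the NAC with array weights (Hdac2 1439704_at, Comparison 4, 0.256), 1 in the CeA with repeated quantile normalisation (Hdac9 1421306_a_at, Comparison 3, 0.217) and, for the 3 terms, 1 in the BNST with array weights (Hdac2 1449080_at, interaction, -0.318). The 7 differences between regions became 19 with array weights, where that of Sirt1 in Comparison 4 against the CeA was lost (0.301, adjusted p = 0.011) and those of Hdac2 1439704_at in Comparison 1 against the NAC, HPC and BNST were gained, and with the mouse number as a replicate block the paired fit gave the same 7. The 0 calls between probesets of a gene became 1 when the brightest was compared only with the second brightest (Hdac4, Comparison 1 of the NAC) and 1 without dim probesets (Hdac2, Comparison 1 of the PFC). The mean of all Hdac2 probesets turned the Comparison 1 value of -0.262 for 1439704_at to 0.015. Hdac9 1434572_at lost its Comparison 6 call with only the 2 groups in the fit (adjusted p = 0.0139) and with array weights (adjusted p = 0.0113). In the PFC array weights also gave calls for Hdac4 1447566_at (Comparison 3 and interaction), Hdac5 (Comparisons 1 and 6) and Hdac8 (Comparison 4). Hdac4 1447566_at was also called in Comparison 3 without dim probesets, as it was with only 2 groups in the fit, where Hdac9 1434572_at was called in Comparison 1 (adjusted p = 0.00847). The cause of these changes was not tested. Dim probesets (Hdac8, Hdac9 1421306_a_at, Hdac4 1447566_at) and groups of 8 arrays in the HPC and CeA limit what could be detected.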

Other observations

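Outside the rule for named genes, and chosen after its values were seen, Mef2c, the MEF2 factor of cortical neurons that class IIa deacetylases repress, had 3 probesets with a called PFC interaction by limma, at -0.26 ± 0.055 (SE, adjusted p = 0.00188), -0.48 ± 0.102 (adjusted p = 0.00204) and -0.27 ± 0.059 (adjusted p = 0.00261). The interaction of Hdac9 1434572_at had the same sign (-0.45) and that of Hdac5 the opposite sign (0.235). No relation between these genes was tested.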
